A study of Phalacrocorax auritus with 15 samples.

Results

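The lower of 2 ethinylestradiol (EE2) doses was compared with solvent in the liver of double-crested cormorant (Phalacrocorax auritus) embryos. The comparison took the 5 libraries whose labels give 3.33 µg EE2 per g egg and the 5 labelled solvent, 10 of the 15 libraries in the count table. The other 5 libraries, from livers given 33.3 µg/g, are set beside them where that shows how the lower dose compares. The table held 16181 features, and all 12633 that passed the filter on low counts in these 10 libraries are described. Of the 3548 under the filter, 183 had no count in any of the 10 libraries and 3365 had some. Since the filter counts libraries, a feature high in a single library can fall under it, and the highest such value was 1872 CPM (counts scaled to the library total).

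EE2 is a synthetic oestrogen used in contraceptive pills, and dimethyl sulfoxide was its solvent. In the exposed group the nominal dose was 3.33 µg/g and the actual dose 2.3 µg/g, and at the higher dose the actual value was 31.9 µg/g. Every egg, solvent eggs included, received 50 µl into the air cell before incubation began, and the left lobe of the liver was sampled. The sample labels put the embryos at day 14 and the text on the series' design puts this species at day 16. The labels give neither the sex of the embryos nor whether replicates are different eggs, so the p-values speak only of variation among these libraries. All exposed libraries carry one column prefix and all solvent libraries another, so a batch marked by the prefix and the exposure cannot be told apart.

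In egg-laying vertebrates the liver is a main target of oestrogen. The hormone binds nuclear receptors in hepatocytes, and these receptors turn on genes for yolk precursors such as the vitellogenins, which the liver secretes into blood for uptake by the growing oocyte. Embryonic and male birds normally make little of these proteins, but their livers can be induced to do so by oestrogen from outside. The feature IDs here carry no gene names, so no value below is tied to a yolk protein, a receptor or a liver marker, and the labelled tissue could not be checked against its markers.

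A library from each group stood apart from the rest of its group. Solvent replicate 2 correlated at 0.776 to 0.837 with the other solvent livers, across the log2 CPM of the features tested, whereas those 4 correlated at 0.952 to 0.983 with each other. Replicate 5 at 3.33 µg/g correlated at 0.903 to 0.936 with the others at its dose, which correlated at 0.976 to 0.988 among themselves. With each other, these 2 libraries correlated at 0.850. These are descriptions over 12633 features, which share library depth and are not independent. Solvent replicate 2 was at least 10-fold above the median of the other solvent livers for 379 features and at least 10-fold below it for 143, with 0.5 CPM added to both. The other 4 solvent livers reached at most 10 and 14. Replicate 5 at 3.33 µg/g was at least 10-fold above for 108 features and below for 2. These counts are in CPM, without trimmed mean of M-values (TMM) scaling. That scaling lowers both libraries relative to the rest of their groups, so the excess of features above is tied to the scale. Solvent replicate 2 also had the lowest total of the 10 libraries, 11602455 counts. The main results are given with and without solvent replicate 2, and some counts also without replicate 5 at 3.33 µg/g.

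Counts were spread over more features in exposed livers than in solvent livers other than replicate 2. The single feature with most counts held 3.57, 3.992, 4.156, 4.199 and 1.165% of a library at 3.33 µg/g and 11.3, 1.03, 11.3, 9.39 and 10.3% in solvent livers. The low value in each group belongs to the library that stood apart. Leaving both aside, the solvent shares were all above the exposed ones. With all 10 libraries the mean difference was -5.26 percentage points (exact permutation test, p = 0.0476, 0.127 after adjustment over 4 measures), and without solvent replicate 2 it was -7.17 (exact p = 0.00794, the smallest that 5 against 4 allows, adjusted 0.0106).

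The 20 features with most counts in each library held 16.5 ± 4.38% at 3.33 µg/g and 25.3 ± 8.81% in solvent livers (SD, n = 5 each). Without solvent replicate 2 the solvent value was 29.1 ± 2.52% (SD, n = 4). The difference was -8.84 percentage points with all libraries (exact permutation test, adjusted p = 0.127) and -12.66 without that library (adjusted 0.0106). The effective number of features, the exponential of the Shannon entropy of the count shares, was 2136, 2233, 2276, 2913 and 4096 at 3.33 µg/g and 910, 4241, 930, 1393 and 1025 in solvent livers. Solvent replicate 2 exceeded every exposed liver, and the other 4 solvent livers were below every exposed one. That difference did not pass with all libraries (exact permutation test, adjusted p = 0.307) and passed without solvent replicate 2 (adjusted 0.0106). The number of features at 1 CPM or more, 12224 ± 365 at 3.33 µg/g and 12068 ± 653 in solvent livers (SD, n = 5 each), did not pass either way (exact permutation test, adjusted p = 0.627 and 0.111).

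**Figure D1:**
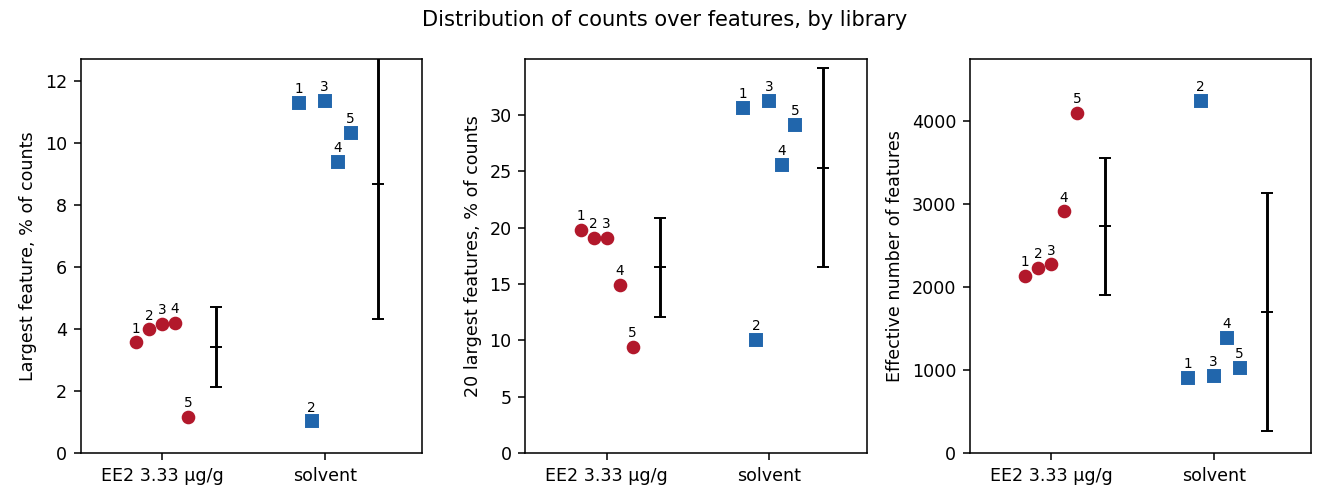
Share of counts in the single most abundant feature, share in the 20 most abundant, and effective number of features, for each library at 3.33 µg/g (left) and in solvent (right). Points are libraries, numbered by replicate, and bars the mean ± SD of 5. Solvent replicate 2, at 10.04% in its 20 most abundant features, sits away from the other solvent livers, at 25.6 to 31.2%.

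Of 12633 features tested, 2529 were called (20%), of which 1223 rose (9.68%) and 1306 fell (10.3%) at 3.33 µg/g relative to solvent (edgeR, adjusted p under 0.05). In whole liver, fewer cells of a type and less RNA per cell cannot be told apart in any of these decreases. Without solvent replicate 2, 12667 features were tested and 4498 were called (35.5%), with 2168 higher (17.1%) and 2330 lower (18.4%). Of the 2529 first calls, 2500 were called again with the same sign, none with the opposite sign and 29 not at all, and a further 1998 were called only without that library. Leaving out another library lowered the total past 1.5-fold in 4 cases: 1627 without replicate 3 and 1442 without replicate 4 at 3.33 µg/g, and 1631 without solvent replicate 1 and 1629 without solvent replicate 5. Without solvent replicate 3 the decreases numbered 856. Without replicate 5 at 3.33 µg/g, 2447 of 12698 features were called, with 1274 higher and 1173 lower, so the larger number was then of increases. The same held without replicates 2, 3 or 4 at 3.33 µg/g or solvent replicates 1 or 3. Decreases were more numerous without replicate 1 at 3.33 µg/g or solvent replicates 2, 4 or 5. With limma-voom 1181 rose and 1049 fell, and with DESeq2 1579 rose and 1774 fell. Which direction had more calls was therefore not stable.

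Decreases were larger in fold than increases. Increases had a median log2 fold change of 0.60 and decreases one of -1.08, and without solvent replicate 2 it was 0.57 and -0.90. Changes of at least 2-fold comprised 279 increases (2.21%) and 707 decreases (5.6%), against 436 (3.44%) and 1007 (7.95%) without solvent replicate 2. Without replicate 4 at 3.33 µg/g, 217 rose and 461 fell by this much. Over 16-fold, 18 features rose and 58 fell, and without solvent replicate 2 these were 19 and 58. At the small end, 585 increases and 202 decreases were under 1.5-fold, and without solvent replicate 2 these were 1124 and 591.

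These directions are relative to the scaling. Under TMM the median over all features was -0.0026 on the log2 scale, and with library size as the only scaling it was 0.38. Library size alone gave 1870 increases and 462 decreases, of which 753 and 293 were at least 2-fold, so the excess of large decreases turned into an excess of large increases. Median-of-ratios scaling gave 1114 increases and 1341 decreases. Of the 2529 calls under TMM, 1326 were called with the same sign with library size alone, and 2413 with median-of-ratios scaling. The TMM factors were 1.04 to 1.42 at 3.33 µg/g, 1.49 in solvent replicate 2 and 0.670 to 0.901 in the other solvent livers.

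**Figure D2:**
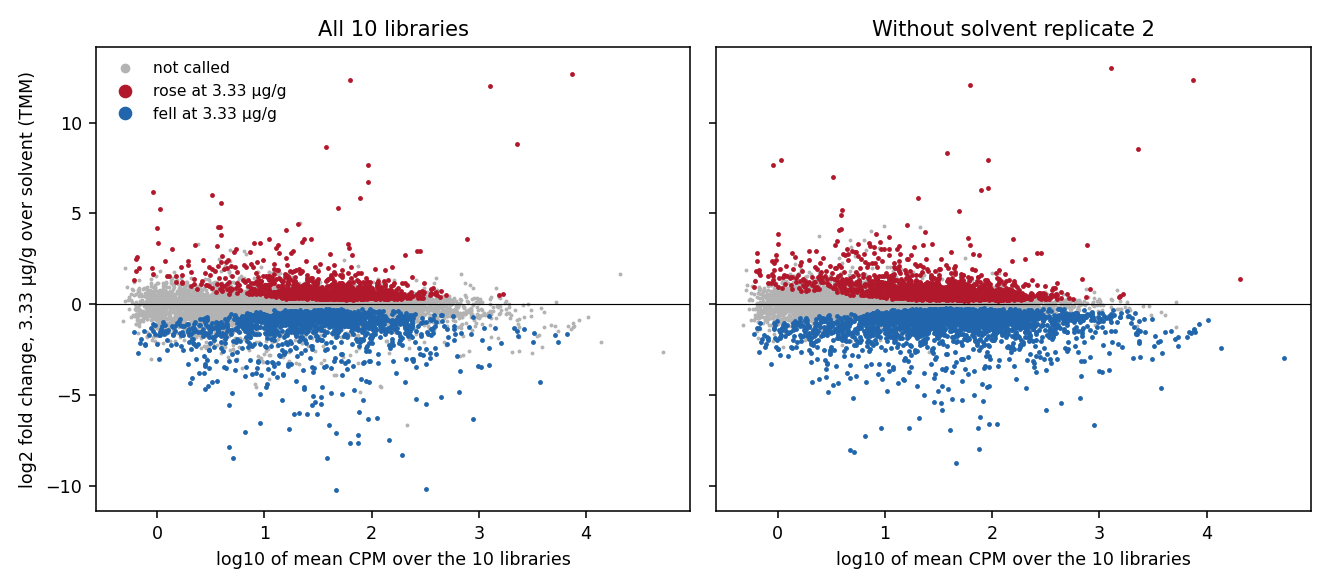
Log2 fold change at 3.33 µg/g over solvent (TMM scaling) against the log10 of mean CPM over the 10 libraries, with all 10 libraries (left) and without solvent replicate 2 (right, features tested in both fits). Each point is a feature; 1223 rose and 1306 fell on the left, and 2168 rose and 2330 fell in the whole fit without that library.

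Many features did not overlap between groups. On TMM-scaled log2 CPM, all 5 exposed livers were above all 5 solvent livers for 1064 features (8.42%) and below them for 778 (6.16%). Without solvent replicate 2 these counts were 1887 (14.9%) and 2064 (16.3%), and without replicate 5 at 3.33 µg/g the higher count was 1621. With library size alone, 1522 features were wholly higher and 426 wholly lower. For 7478 features (59.2%) the 95% interval of the fold change lay wholly inside 2-fold either way, and 984 of these were called. A further 3610 were not called but had an interval that reached 2-fold, so a change of that size is not excluded for them. These interval counts are relative to TMM scaling. With library size alone, the interval lay inside 2-fold for 3675 features. The median SD of log2 CPM within a group was 0.27 at 3.33 µg/g and 0.37 in solvent livers, or 0.18 without replicate 5 and 0.22 without solvent replicate 2.

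Increases and decreases were ranked by fold among features called with and without solvent replicate 2, with the same sign and no overlap between groups. Those traits are therefore conditions of the ranking and not results for the ranked features. The largest increase, s2f_0020325001, was nearly silent in solvent livers and among the most abundant RNAs of exposed livers. It had 17809, 18081, 19098, 13747 and 5935 CPM in the 5 livers at 3.33 µg/g, against 1.204, 0, 2.962, 1.665 and 1.682 CPM in the 5 solvent livers. Replicate 5 had the lowest exposed value and remained far above every solvent liver. The log2 fold change was 12.67 with an SE of 1.20 (edgeR, adjusted p = 0.000376), while leaving out solvent replicate 2 gave 12.35 with an SE of 0.70 (edgeR, adjusted p = 1.62e-05). At 33.3 µg/g it had 18762, 11154, 9930, 17307 and 15497 CPM, a range inside that of the lower dose with replicate 5 included. Replicates 1 to 4 at 3.33 µg/g ran from 13747 to 19098 CPM, and the 11154 and 9930 CPM at 33.3 µg/g lie below that.

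The second, s2f_0008026003, had 1 count in all 5 solvent libraries together. It had 67.4, 230.6, 181.5, 118.6 and 26.8 CPM at 3.33 µg/g, against 0.0581 CPM in solvent replicate 3 and 0 in the other solvent livers. Replicate 5 was again the lowest exposed liver. Summed over livers and divided by the summed library totals, its counts were 10841 times those in solvent (95% interval 1945 to 428225, counting error only). The adjusted p was 0.000296, and 0.000187 without solvent replicate 2 (edgeR). Its values at 33.3 µg/g were 83.9 to 273.9 CPM.

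The increases ranked 3 to 10 by fold had log2 fold changes from 12.01 down to 5.57. Those at ranks 3 and 4 were also abundant. The fourth had 5236, 6008, 7332, 3201 and 915 CPM at 3.33 µg/g, against 9.88, 2.15, 4.82, 4.16 and 12.9 CPM in solvent livers (log2 fold change 8.82, SE 0.97; edgeR, adjusted p = 0.000673). The third had 2281, 3488, 4482, 2303 and 243 CPM at 3.33 µg/g, against 0.201, 2.24, 0.348, 0.111 and 0.168 CPM in solvent livers (log2 fold change 12.01, SE 1.15; edgeR, adjusted p = 0.000394). In both, replicate 5 was the lowest exposed liver.

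Smaller in abundance, the fifth had 65.1, 123.8, 84.3, 77.2 and 27.8 CPM at 3.33 µg/g, against 0.201, 0, 0.174, 0.167 and 0.0561 CPM in solvent livers (log2 fold change 8.68, SE 0.65; edgeR, adjusted p = 0.000191). The ninth had 156.6, 163.0, 150.3, 279.3 and 20.8 CPM at 3.33 µg/g, against 0.552, 6.81, 0.407, 3.77 and 0.785 CPM in solvent livers (log2 fold change 5.86, SE 0.84; edgeR, adjusted p = 0.00192). Solvent replicate 2 was the highest solvent liver for both the ninth and the third. The rest of these ranks had exposed ranges from 0.627 to 12.2 CPM (the eighth) to 29.6 to 363.5 CPM (the seventh).

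Replicate 5 was the lowest exposed liver in CPM for 9 of the 10 ranked increases. It was lowest in CPM for 99 of all 906 increases eligible for the ranking (10.9%) and for 17.95% of all 12633 features tested. Overlap was judged on the TMM scale. There replicate 5 was lowest for 13 of 16 eligible increases over 16-fold and 35 of 46 at 4 to 16-fold. It was lowest for 85 of 140 at 2 to 4-fold and 266 of 704 under 2-fold. In CPM those counts were 12, 27, 41 and 19. The share over all features was taken in CPM only. Eligible increases had to show no overlap between the groups, which leaves out small increases with a low exposed liver. These shares are therefore a description, and no test compared them by size of fold. The share of counts in the most abundant feature of replicate 5 was 1.165% and its TMM factor the highest of its group, and their part in these low values was not tested.

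**Figure D3:**
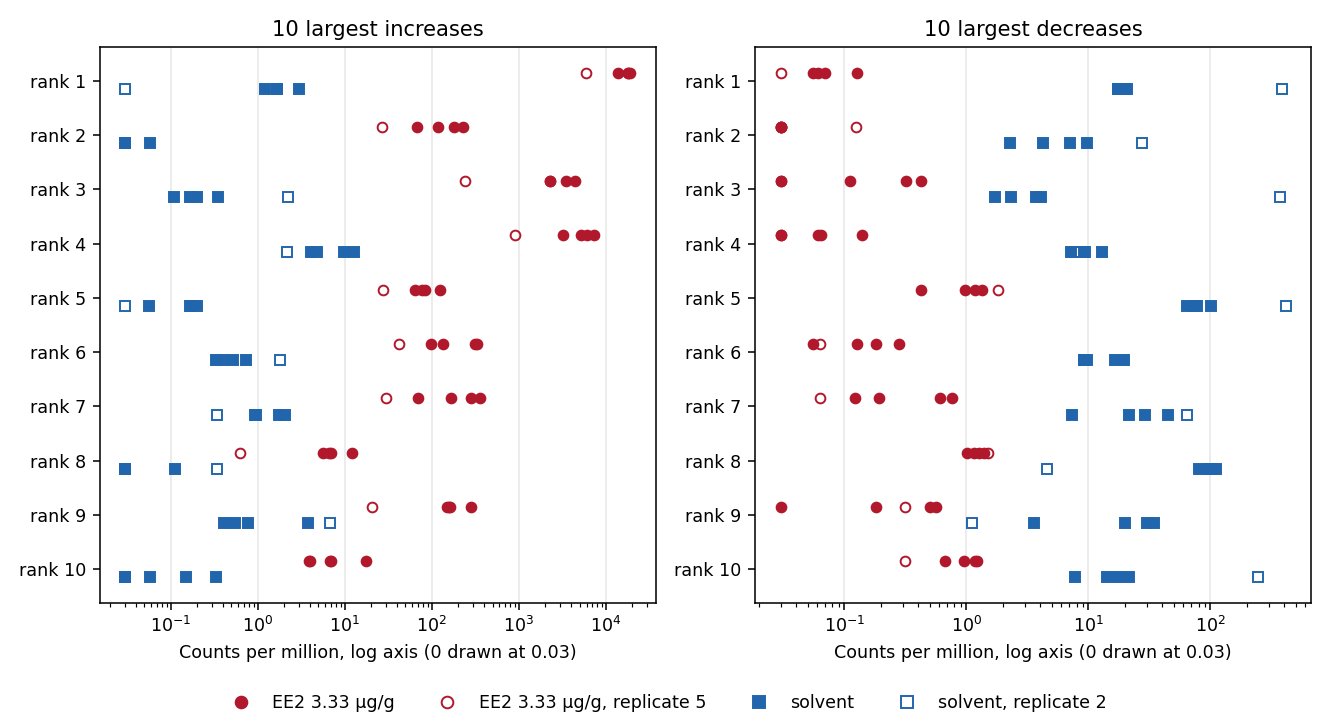
CPM (log axis, 0 drawn at 0.03) of the 10 largest increases and the 10 largest decreases by rank, in livers at 3.33 µg/g (circles) and solvent livers (squares). Open symbols are 3.33 µg/g replicate 5, lowest of its group for 9 of 10 increases, and solvent replicate 2, highest of its group for 6 of 10 decreases.

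Among the decreases, s2f_0000420005 was close to absent in exposed livers. It had 0.0699, 0.0610, 0.0558, 0.128 and 0 CPM at 3.33 µg/g, 5 counts in all, against 17.6, 386.9, 19.6, 17.6 and 20.7 CPM in solvent livers. Solvent replicate 2 was far above the other solvent livers, which lay within a narrow range, and no exposed liver came near either. The log2 fold change was -10.24 with an SE of 1.24 (edgeR, adjusted p = 0.000927), while leaving out solvent replicate 2 gave -8.72 with an SE of 0.33 (edgeR, adjusted p = 1.69e-06). At 33.3 µg/g it was at 0 in 3 livers, 0.916 CPM in replicate 5 and 30.2 CPM in replicate 2.

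The other decrease given by ID, s2f_0041588001, had 2 counts in all at 3.33 µg/g, both in replicate 5 (0.125 CPM). Its solvent values were 7.03, 27.8, 2.27, 4.27 and 9.76 CPM, highest in replicate 2. Solvent over exposed, the ratio of summed counts, scaled by the summed library totals, was 356.5 with a 95% interval of 98.3 to 2949 (counting error only). The log2 fold change was -8.49 with an SE of 0.86 (edgeR, adjusted p = 0.000483) while the fit on 9 libraries, without solvent replicate 2, gave -8.13 (edgeR, adjusted p = 0.000142). At 33.3 µg/g its highest value was 0.534 CPM, in replicate 2.

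The decreases ranked 3 to 10 had log2 fold changes from -8.44 to -6.04. In the eighth, solvent replicate 2 was nearer to the exposed livers than to its own group. It had 1.398, 1.159, 1.004, 1.281 and 1.504 CPM at 3.33 µg/g, against 101.6, 4.57, 98.8, 80.8 and 110.8 CPM in solvent livers. The 4.57 CPM belongs to solvent replicate 2, and the log2 fold change was -6.63 with an SE of 0.88, or -6.95 with an SE of 0.20 without that library (edgeR, adjusted p = 0.00138 and 2.73e-07). The third went the other way, with at most 0.427 CPM at 3.33 µg/g, against 374.7 CPM in solvent replicate 2 and 1.71 to 4.07 CPM in the other 4 solvent livers. Its log2 fold change was -8.44 with all libraries and -4.68 without that library (edgeR, adjusted p = 0.0139 and 0.00159).

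Across the ranked decreases, solvent replicate 2 was the highest solvent liver in CPM for 6 of 10 and the lowest for 3. It was highest for 562 of the 707 decreases eligible for the ranking (79.5%), and for 10004 of all 12633 features tested (79.2%). Its TMM factor was the highest of its group, so TMM scaling lowers its values relative to the others. On the TMM scale the seventh was 43.6 in solvent replicate 2 and 60.9 in solvent replicate 5. There the fourth was lowest in solvent replicate 2, at 5.29, next to 8.08 in solvent replicate 4. With limma-voom, 3 ranked decreases were not called: the third, eighth and ninth (adjusted p = 0.116, 0.0967 and 0.177).

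Features near absent in one group and present in the other were few. Under 1 CPM in mean solvent livers and at least 10 CPM in mean exposed livers there were 5 features, all called with and without solvent replicate 2. In the other direction, under 1 CPM in exposed livers and at least 10 CPM in solvent livers, there were 22, of which 18 were called with all libraries and 11 without solvent replicate 2. When the solvent mean was taken from the other 4 livers, the counts were 15 and 6, of which 10 and 6 were called without solvent replicate 2. No feature tested had 0 counts in all 5 livers of either group.

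The feature with most counts in solvent livers was lower at 3.33 µg/g than in 4 of the 5 solvent livers. It held 33438, 24937, 25046, 12417 and 7158 CPM at 3.33 µg/g, against 112937, 327, 113434, 93879 and 103171 CPM in solvent livers. Solvent replicate 2 lay below every exposed liver, and the other 4 solvent livers above every one. The log2 fold change of -2.64 (SE 1.20) did not pass with all libraries (edgeR, adjusted p = 0.152), and without solvent replicate 2 it was -2.96 (SE 0.53; edgeR, adjusted p = 0.00248). With all libraries DESeq2 did call this feature, at -2.65 (adjusted p = 0.0201).

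The feature with most counts at 3.33 µg/g behaved in the opposite way. It had 35698, 39916, 41555, 41987 and 11650 CPM at 3.33 µg/g, against 9094, 1834, 10798, 6973 and 7008 CPM in solvent livers. Every exposed liver was above every solvent liver in CPM, but on the TMM scale replicate 5 fell within the solvent range. The log2 fold change was 1.66 (SE 0.68; edgeR, adjusted p = 0.114), and 1.37 without solvent replicate 2 (SE 0.44; edgeR, adjusted p = 0.0373). It was called under library size alone, where it stood at 2.26 on the log2 scale (edgeR, adjusted p = 0.00897). DESeq2 also called it with all libraries, at 1.64 (adjusted p = 0.0207).

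In all, 5 features were among the 8 with most counts in both groups. Of the 8 in solvent livers, 1 was called with all libraries, the eighth, with 4307, 5119, 4927, 3150 and 3536 CPM at 3.33 µg/g and 9028, 7684, 7573, 7938 and 12950 CPM in solvent livers (log2 fold change -1.61; edgeR, adjusted p = 0.0185). These groups do not overlap. The call of the eighth was lost without replicate 4 at 3.33 µg/g (edgeR, adjusted p = 0.0597) and with the replicate number as a block (edgeR, adjusted p = 0.129). Without solvent replicate 2, all 8 of these were called as lower at 3.33 µg/g, with log2 fold changes from -2.96 to -0.85. Under library size alone without that library, 2 of these 8 did not pass, the third at -0.19 and the fourth at -0.48 on the log2 scale (edgeR, adjusted p = 0.202 and 0.144). That library held 327, 87.8 and 30.1 CPM of the first, the second and the sixth, which the other 4 solvent livers held at 10666 CPM or more.

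**Figure D4:**
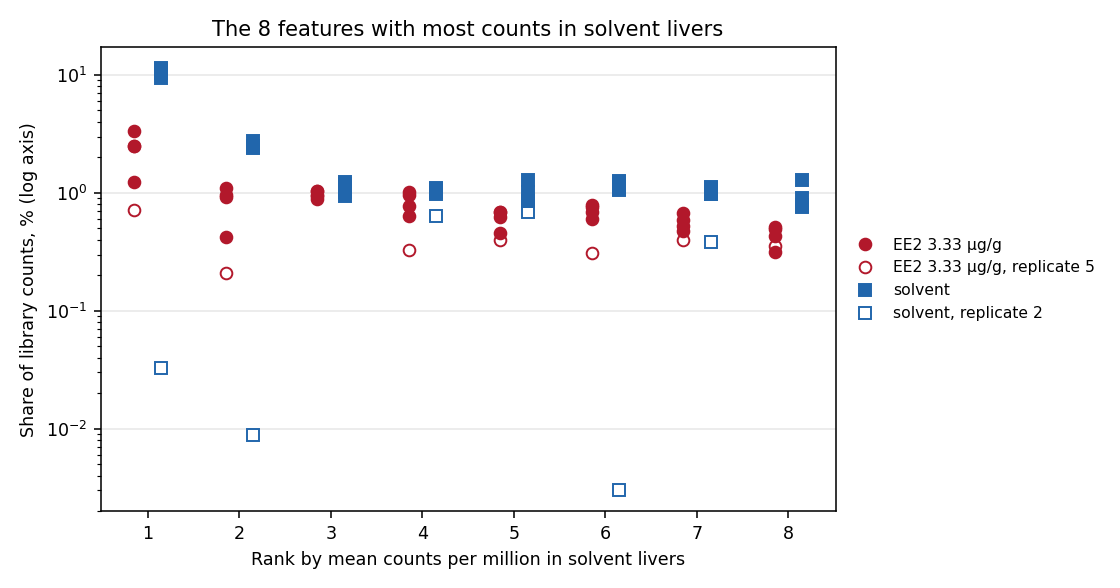
Share of library counts (%, log axis) of the 8 features with most counts in solvent livers, by rank, in livers at 3.33 µg/g and solvent livers. Open symbols are 3.33 µg/g replicate 5 and solvent replicate 2; the most abundant feature took 2.06% on average at 3.33 µg/g and 8.48% in solvent livers.

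Among called increases, the 3 largest gains in CPM were those at ranks 1, 3 and 4 by fold. Among called decreases, the largest loss in CPM fell to 783.5, 630.4, 704.2, 454.8 and 167.2 CPM at 3.33 µg/g, against 9626, 40.7, 9448, 6720 and 8649 CPM in solvent livers. Solvent replicate 2 was below all exposed livers, so the groups overlap through it. The log2 fold change was -4.27 (SE 1.14; edgeR, adjusted p = 0.0267), or -4.59 without that library (edgeR, adjusted p = 0.000269). The call was lost without replicates 1, 2, 3 or 4 at 3.33 µg/g and without solvent replicates 1, 3 or 5, with adjusted p from 0.0516 to 0.0733. It was also lost with limma-voom (adjusted p = 0.153) and with the replicate number as a block (edgeR, adjusted p = 0.189). The second largest loss had 2742, 3400, 2776, 1730 and 3711 CPM at 3.33 µg/g against 11012, 5035, 10208, 5944 and 7727 CPM in solvent livers. Its groups did not overlap (log2 fold change -2.08, edgeR, adjusted p = 0.0124). Its call was lost with the replicate number as a block (edgeR, adjusted p = 0.0824).

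Calls differed by abundance class. In the class averaging 1000 CPM or more over the 10 libraries, with 103 features, 5 rose and 18 fell, with a median log2 fold change of -0.68 beside -0.0026 over all features. Without solvent replicate 2, 7 of 106 rose (6.60%) and 72 fell (67.9%). The 18 decreases became 10 without replicates 1 or 3 at 3.33 µg/g, 6 without replicate 4 at 3.33 µg/g or solvent replicates 1 or 5, and 8 without solvent replicate 3. The 5 increases became 2 without replicate 3 at 3.33 µg/g and 3 without its replicates 1, 2 or 4 or solvent replicates 1, 3, 4 or 5. With library size alone, 16 rose and 15 fell, or 26 and 41 without solvent replicate 2. With the replicate number as a block, 3 rose and 0 fell. With limma-voom 5 rose and 10 fell, and with DESeq2 8 rose and 40 fell. With all libraries, the excess of decreases among abundant features therefore depends on the scaling and on the replicate block. Between 10 and 100 CPM, 915 of 7541 features rose and 770 fell. Between 1 and 10 CPM, 124 of 3220 rose and 294 fell. With library size alone these counts were 1305 and 247 between 10 and 100 CPM, and 178 and 79 between 1 and 10 CPM, where the balance of directions turned round.

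**Figure D5:**
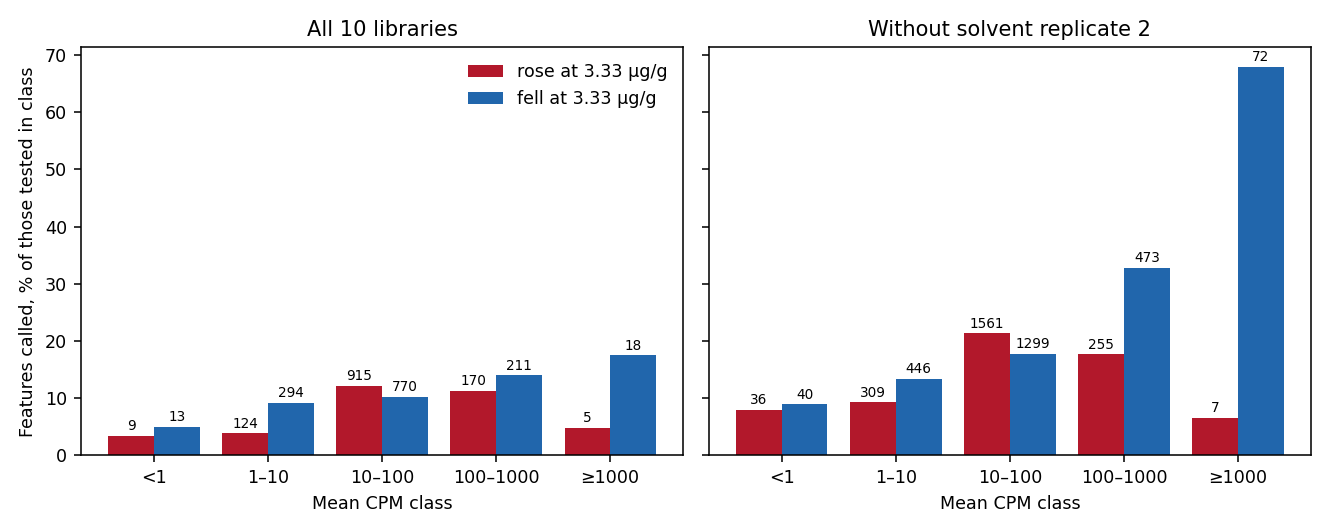
Features called at 3.33 µg/g against solvent, as a percentage of those tested in each class of mean CPM, with all 10 libraries and without solvent replicate 2. In the class of at least 1000 CPM, 17.5% of features fell and 4.85% rose with all libraries, and 67.9% fell and 6.60% rose without solvent replicate 2.

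The features called both ways together took a changed share of the liver's counts. The 1217 that rose with and without solvent replicate 2 held 11.3 to 12.7% of counts at 3.33 µg/g, against 3.55 to 4.80% in 4 solvent livers and 7.34% in solvent replicate 2. The 1283 that fell held 7.24 to 8.74% at 3.33 µg/g, against 15.01 to 18.87% in solvent livers. These sums follow from the choice of the features and are a description. In the livers at 33.3 µg/g, which were not used to choose them, the shares were 11.1 to 12.5% and 7.77 to 8.96%. The solvent livers they are read against did take part in the choice, so this is no independent check.

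Some abundant features stayed close to their solvent level under TMM. The 5 with the narrowest interval around 0 among those of at least 1000 CPM had log2 fold changes from -0.24 to 0.29. The one nearest 0 had TMM-scaled CPM of 2763, 2891, 2702, 2253 and 1964 at 3.33 µg/g and 2987, 2060, 2669, 2349 and 2834 in solvent livers, with a log2 fold change of -0.04 and a 95% interval of -0.50 to 0.42. Those groups overlap. With library size alone this value was 0.39 and 2 of the other 4 were called as higher at 3.33 µg/g. Under library size alone without solvent replicate 2, all 5 were called as higher, at 0.37 to 0.81 (edgeR, largest adjusted p = 0.0204). Their steadiness is therefore a property of the scaling as well.

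The 2 doses were also compared directly, in a fit of those 10 libraries. Of 12717 features tested, 1 was called (0.00786%), lower at 3.33 µg/g than at 33.3 µg/g, and 845 had an unadjusted p under 0.05 (6.64%). Without replicate 5 at 3.33 µg/g, 2003 features had an unadjusted p under 0.05 and 0 were called. Leaving out any other single library gave 530 to 935 features with an unadjusted p under 0.05. The called feature, chosen because it passed, had 2.31, 4.03, 4.07, 3.27 and 3.89 CPM at 3.33 µg/g and 18.1, 16.2, 32.1, 22.4 and 11.9 CPM at 33.3 µg/g. No value of the lower dose reached one of the higher. The log2 difference was -2.50 with an SE of 0.27 (edgeR, adjusted p = 0.0262), and the call was lost when any of 8 of the 10 libraries was left out (adjusted p up to 0.192). Solvent livers held 20.3, 6.12, 42.2, 16.3 and 16.2 CPM of this feature, above every liver at 3.33 µg/g (log2 fold change -3.17; edgeR, adjusted p = 0.00535).

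The ranked features can be set beside their values at the higher dose. For the 10 increases, the log2 difference of 3.33 over 33.3 µg/g ran from -0.62 to 0.83, with SEs of 0.37 to 0.68, and none passed (edgeR, smallest adjusted p = 0.842). Of the 10 decreases, 3 had enough counts to be tested between doses, with log2 differences from -1.76 to -0.02, and none passed (edgeR, smallest adjusted p = 0.747). Replicate 2 at 33.3 µg/g was the highest of its group in CPM for 8 of the 10 decreases. Its share over all features was not taken, so this is not shown to be particular to the decreases. A p that misses the threshold does not show that the doses acted alike.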

How the data were processed

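Counts per feature were deposited by the authors as whole numbers and were taken as unnormalised because library totals differ. The aligner, counting program, reference, annotation, strand handling and meaning of a feature were not given in the sources used here, so near-identical sequences may be split or merged and each level is uncertain to that extent. Columns were matched to samples by the class line of the table (Medium as 3.33 µg/g, High as 33.3 µg/g, Control as solvent) and the last digit of each name, and 0 columns were left without a sample.

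The 10 libraries alone were fitted with edgeR 4.0.16 in R 4.3.3: the default expression filter (count 10, total 15), trimmed mean of M-values (TMM) scaling, the quasi-likelihood F-test, two-sided, with Benjamini-Hochberg adjustment over all features tested. Features at an adjusted p under 0.05 were called. The standard error (SE) was the absolute log2 fold change divided by the square root of F. CPM are counts divided by the library total and multiplied by the customary constant. Log2 CPM used a prior count of 2. Total counts ranged from 11602455 to 19929889. Ratios of summed counts were scaled by the groups' summed library totals, and their intervals (95%, exact) cover counting error only. Library composition was compared by exact permutation tests. The code was tested on simulated counts with 200 features changed, drawn with the fitted dispersions and no outlying library, unlike these data. Against solvent, 26% of 2-fold and 73% of 4-fold changes were recovered, and 2.94% of calls were false. Between doses these values were 63, 90 and 6.14%. The 200 changed features are far fewer than the 2529 called against solvent, and the adjusted p depends on how many features change. The recovery against solvent therefore need not hold for these data. Limma 3.58.1 (voom), DESeq2 1.42.0, other scalings and filters, the replicate number as a block and leaving out each library were alternatives, and a fit without both solvent replicate 2 and 3.33 µg/g replicate 5 was added after seeing the data.

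Features named by ID were the 2 largest increases and 2 largest decreases among those called with and without solvent replicate 2 with the same sign, with a mean of at least 1 CPM and no overlap between groups. The next 8 each way, the 8 features with most counts in each group, the 3 largest gains and losses in CPM and the 5 abundant features with the narrowest interval around 0 are given without ID. The comparison, lists and rules were chosen with earlier results of these data known. The IDs could not be matched to gene names, so no gene list or tissue marker was examined.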

Additional observations from a re-analysis of the deposited data

Results flagged for a closer look

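Each result below is a value that lay far from the other 4 of its group, by a gap over 0.71 of the group's whole range. Of 54 groups of 5 values examined, 15 were marked, 10 of them in solvent replicate 2. Chance marks about 1 in 20 groups of independent, normally distributed values. These groups share libraries and CPM is skewed, and a group with counts in a single library is always marked, so that rate is no yardstick for the 15. No explanation was tested.

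Among the largest increases, the second had 0.0581 CPM in solvent replicate 3, which is its only solvent count. In solvent replicate 2 the third had 2.24 CPM, against 0.111 to 0.348 in the other solvent livers, and the sixth had 1.81 CPM, against 0.333 to 0.729. The tenth had 17.5 CPM in replicate 1 at 3.33 µg/g, while its dose otherwise gave 3.90 to 6.89.

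Among the largest decreases, solvent replicate 2 had 386.9 CPM of the first (17.6 to 20.7 in the other solvent livers), 374.7 of the third (1.71 to 4.07), 415.8 of the fifth (64.5 to 101.2) and 247.2 of the tenth (7.74 to 21.5). For the eighth it was low, with 4.57 CPM, against 80.8 to 110.8. The second had 0.125 CPM in replicate 5 at 3.33 µg/g, its only exposed counts. The eighth most abundant feature of solvent livers had 12950 CPM in solvent replicate 5, against 7573 to 9028 in the others.

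Library composition was marked in 4 cases. The single most abundant feature held 1.165% of counts in replicate 5 at 3.33 µg/g (3.57 to 4.199% in the others) and 1.03% in solvent replicate 2 (9.39 to 11.3%). In solvent replicate 2 the 20 most abundant features held 10.04% (25.6 to 31.2%), and the effective number of features was 4241 (910 to 1393).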

How the results depend on the processing

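The total of 2529 calls was 2230 to 3514 under median-of-ratios scaling, a 5 CPM filter, no filter, all 15 libraries in the fit, DESeq2, limma-voom, a robust fit and an adjusted p under 0.1. At an adjusted p under 0.01 it was 872 (442 rose, 430 fell). Library size alone gave 1870 increases and 462 decreases, of which 753 and 293 were at least 2-fold, or 7401 and 829 of 8230 calls without solvent replicate 2. Median-of-ratios scaling without that library gave 4392 calls (2006 and 2386). Without both solvent replicate 2 and 3.33 µg/g replicate 5 there were 5140 (2740 and 2400, with 490 increases of at least 2-fold), and the composition differences were -6.61 and -10.9 percentage points and 1325 effective features, each with an adjusted exact p of 0.0381. Leaving out each library in turn gave totals of 1442 to 4498, increases of 736 to 2168, decreases of 706 to 2330, and 217 to 436 increases and 461 to 1007 decreases of at least 2-fold. It gave differences of -7.17 to -4.59 and -12.66 to -7.08 percentage points, 690 to 1666 effective features and, between doses, 0 or 1 call. The labels do not say whether the replicate numbers pair the libraries. Same-numbered deviations from the group means correlated at -0.36 to 0.55, with 2 of 5 over 0.1 and no exposed library closest to its own number. Both outlying libraries enter those means, so this check cannot exclude pairing. The replicate block gave 1045 calls (518 and 527, with 349 decreases of at least 2-fold). Between doses it gave 0, all 15 libraries 0, limma-voom 0 and DESeq2 48. Among the named features, 5 that were not called with all libraries reversed. With library size alone, 3 of the 5 steady features were at 0.21, 0.33 and 0.39. The last was 0.0021 without 3.33 µg/g replicate 4, 0.040 without replicate 5 and 0.023 without solvent replicate 1, in a range of -0.11 to 0.04 over libraries left out in turn, and 0.015 without both outlying libraries. With limma-voom, the seventh and eighth most abundant features at 3.33 µg/g were at 0.34 and 0.20, against -1.05 and -1.19 with edgeR, and both were called as lower by edgeR without solvent replicate 2 (-1.37 and -1.51). The cause was not tested. Depth limits values under about 1 CPM, which rest on few counts.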

Other observations

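Features whose IDs match in all but the final 3 digits were looked at together, without assuming what a shared stem means. Of the features tested, 7624 shared a stem with another. In 282 groups at least 2 members were called at 3.33 µg/g against solvent, and in 172 of these (61.0%) all called members moved the same way. Of the 218 groups with exactly 2 called members, 141 (64.7%) moved together. Of all called features 48.4% rose, which is a different measure. The share of unrelated called features that move together was not worked out, for pairs or for larger groups. Among the ranked features, 2 of the 10 increases and 5 of the 10 decreases shared a stem with another of their list. How features with a shared stem were counted is not given in the sources used here, so these values are a description.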
